A study of Danio rerio with 3 samples.

Results

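The TRIM-like genes of the zebrafish (Danio rerio) larva were taken as the mRNA genes whose best human protein match, as annotated in the deposited table, was a TRIM gene with a number. This rule selected 169 of 19814 mRNA genes, and it used no expression value. By their own symbols, 19 were named trim genes, 33 were ftr genes (finTRIM), 17 were btr genes (bloodthirsty-related), 1 was bty (bloodthirsty), and 99 carried only a LOC number. RNA-seq was performed on whole larvae of the Tuebingen strain at 6 days post fertilization (dpf), and the mRNA was sequenced from 1 pooled library for each condition. The larvae received DMSO alone, as the vehicle, or BDE47 at 5 or 500 μg/L, where BDE47 is 2,2',4,4'-tetrabromodiphenyl ether, a brominated flame retardant, and DMSO carried the compound in both exposures. Exposure began in the early embryo, and the untreated blank group of the study was not analysed here. Because each condition had 1 library, no difference between conditions has a replicate check, and intervals below describe counting error only. They take reads as independent draws. Reads without molecular identifiers are not independent molecules, so the intervals may be too narrow even for counting error.

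TRIM proteins carry a RING finger, 1 or 2 B-boxes and a coiled coil, and most act as E3 ubiquitin ligases, which pass ubiquitin from an E2 enzyme to a chosen target. The C-terminal part differs between subfamilies and sets the target: B30.2 (also called PRY-SPRY) in the immune-related members, NHL repeats in several neural members, and a PHD finger with a bromodomain in the nuclear corepressors. In teleost fish the B30.2 members expanded into the finTRIM and bloodthirsty sets, many of which lie in tandem, and finTRIM genes were first found through their induction by virus in trout.

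Reads on mRNA genes numbered 34156825, 25125399 and 22186369 for DMSO vehicle, 5 and 500 μg/L, and 1 read was worth 0.790, 1.09 and 1.25 normalized counts in that order. The TRIM-like genes took 0.122%, 0.120% and 0.118% of these reads at DMSO vehicle, 5 and 500 μg/L. The median TRIM-like gene rested on 58, 41 and 33 reads at DMSO vehicle, 5 and 500 μg/L, whereas the median over all mRNA genes was 312, 221 and 193 reads. Thus 29 of the 169 stayed below 10 normalized counts in every library, 58 reached 100 normalized counts in at least 1 library, and 8 reached 1000. No read fell on 5, 2 and 8 members at DMSO vehicle, 5 and 500 μg/L. The larval tissues searched (skeletal muscle, heart, macrophage, neutrophil, liver, intestine, neuron, photoreceptor, erythrocyte and epidermis) all had marker genes in the table, and no such marker was at 0 reads.

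The human matches were concentrated in a few genes. TRIM16 was the match of 53 members, TRIM25 of 36, TRIM39 of 28, TRIM35 of 13, TRIM27 of 6 and TRIM47 of 5. The ftr genes matched TRIM16 (19 genes), TRIM25 (13 genes) and TRIM47 (1 gene), while 12 of the 17 btr genes matched TRIM39. The 99 LOC copies were spread over the same matches, with 33 at TRIM16, 21 at TRIM25, 15 at TRIM39 and 12 at TRIM35. In the RefSeq gene table (assembly GRCz12tu) 62 of the 99 LOC rows could be found by gene ID, and 37 of them now carry a trim, ftr or btr symbol. The label TRIM-like held for most rows but not for all of them. The annotated description used TRIM family wording for 127 members and was uncharacterized or a clone name for 29. A further 11 were described as subunits of the fish toxins stonustoxin and neoverrucotoxin, which share the B30.2 domain, and 2 as NACHT or NOD2-like proteins. All 13 of these had a match with an E-value above 1e-40, while 20 members had a match of 1e-100 or better. Weak matches were not confined to these 13, since 47 members in all had an E-value above 1e-40. They included 27 with TRIM family wording and 7 with an uncharacterized or clone name description.

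At 500 μg/L against DMSO vehicle, the TRIM-like genes split in both directions and most named trim genes stayed within 2-fold. A gene was called when its ratio of normalized counts was at least 2 or at most 0.5, provided that 1 library of the pair reached 10 normalized counts. Of the 137 members that met this minimum, 9 were higher at 500 μg/L and 13 were lower. Over all 17758 mRNA genes that met it, 7.40% were higher and 4.74% were lower, so 16.1% of the members and 12.1% of all genes were called. The median log2 ratio was -0.14 for the members and -0.02 for all genes. In bulk larvae, fewer cells of a type and less RNA per cell cannot be told apart. The called members were shallow: 9 of the 22 had under 30 reads in their deeper library, compared with 368 of the 2155 called genes overall. Among the 57 well-counted members, which reached 100 normalized counts in either library, 3 were higher and 4 were lower (12.3%, against 9.91% of all such genes), and the spread of their log2 ratios was 0.33 (SD from the median absolute deviation), against 0.53 for all such genes.

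**Figure D1:**
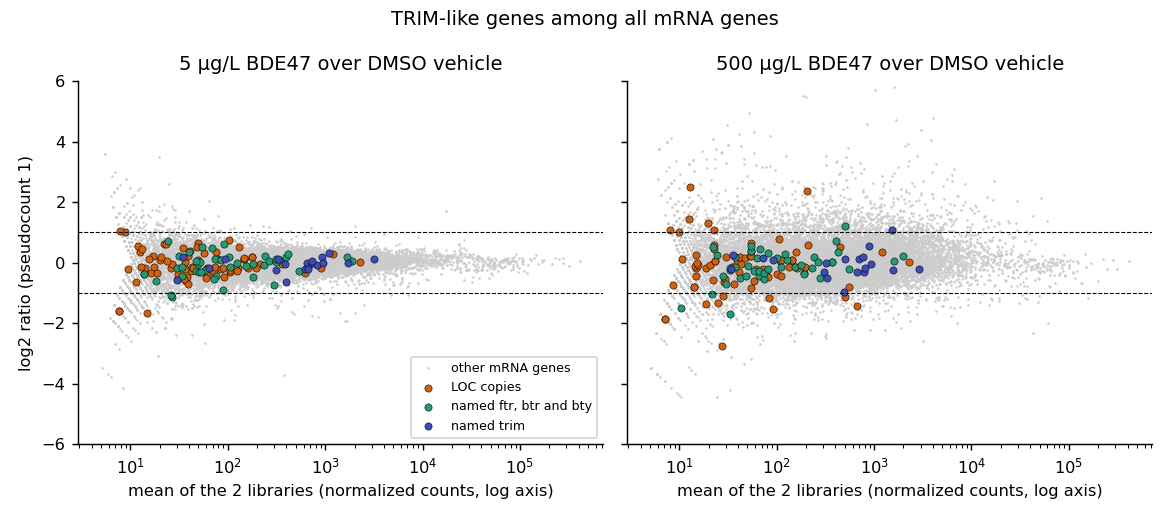
Log2 ratio to DMSO vehicle (pseudocount 1) against the mean of the 2 libraries in normalized counts (log axis) for 5 μg/L (left) and 500 μg/L BDE47 (right). Grey points are the other mRNA genes, of which 4 at 500 μg/L lie outside the axis, coloured points are TRIM-like genes by symbol class, and dashed lines mark log2 ratios of -1 and 1. The named trim genes lie within the dashed lines apart from trim55b at 500 μg/L. The coloured points beyond the lines are mostly LOC copies, many of them with few counts.

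Calls differed by symbol class. Of the 19 named trim genes, 1 was called at 500 μg/L and it was higher. Of 26 ftr genes that met the minimum, 1 was lower, and of 17 btr genes 1 was higher and 2 were lower. The 74 LOC copies that met it gave 7 higher and 10 lower genes, that is 23.0% of them, beside 12.1% of all genes. Well-counted LOC copies numbered 23, of which 1 was higher and 4 were lower (21.7%, against 9.91% of all well-counted genes). The share called among well-counted trim, ftr and btr genes was 6.67% of 15, 0% of 10 and 11.1% of 9. Among the 74 copies 10 now carry a trim symbol in RefSeq, of which 1 was higher and 2 were lower (30%), and 3 of the 10 were well counted. Another 6 have a RefSeq symbol that is neither trim, ftr, btr nor LOC, of which 1 was higher and 3 were lower (66.7%). Of those 6, 5 were well counted, including the 3 lower ones. Of the 4 well-counted members that were lower, 2 had a match with an E-value above 1e-40. No gene of the 26 with an uncharacterized or clone name description was called, whereas 20 of 103 with TRIM family wording and 2 of 8 fish toxin subunits were. The difference in calls between classes was not tested.

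The striated muscle members came apart. trim55b encodes a MuRF2-type protein, which in mammals binds the sarcomere. It had 972, 1213 and 2049 normalized counts at DMSO vehicle, 5 and 500 μg/L, from 1230, 1110 and 1640 reads. The level was thus highest at 500 μg/L, 2.11 times that in DMSO vehicle (95% counting interval 1.96 to 2.27), and 1.25 times at 5 μg/L (1.15 to 1.35). Its paralogue trim55a had 90.1, 97.3 and 94.9 normalized counts at DMSO vehicle, 5 and 500 μg/L, a ratio of 1.05 at 500 μg/L with an interval of 0.778 to 1.42. The intervals of the pair do not overlap at 500 μg/L. trim54, a MuRF3-type gene, rested on 41, 34 and 31 reads at DMSO vehicle, 5 and 500 μg/L, and its ratio of 1.20 at 500 μg/L had an interval of 0.725 to 1.95. None of 9 skeletal muscle markers in the table was called at either dose, and their summed level was 625616 normalized counts at 500 μg/L, against 640728 in DMSO vehicle. Their median log2 ratio at 500 μg/L was -0.31, with acta1a at 0.567, acta1b at 0.630 and tnnt3a at 0.669, while the most counted of them, mylz2 and pvalb1, were at 1.08 and 0.992. Of 4 heart markers 1 was higher at 500 μg/L, namely nppa, a natriuretic peptide gene, at 2.64-fold. The sum of the 4 was 6020 normalized counts at 500 μg/L, against 4738 in DMSO vehicle. The part of muscle or heart content in the trim55b ratio was not tested.

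The neural and NHL-repeat members were at or below the vehicle level at 500 μg/L, apart from trim71. trim2, which is trim2b in RefSeq, is related to a mammalian ligase of neurons that binds neurofilament light chain. It had 658, 650 and 331 normalized counts at DMSO vehicle, 5 and 500 μg/L. Its ratio of 0.503 at 500 μg/L (interval 0.437 to 0.579) was not called but lay at the edge of the 2-fold threshold, which it passed at 0.490 when libraries were scaled to total reads, and at 5 μg/L it was 0.989. Its paralogue trim2a, in contrast, had 317, 342 and 317 normalized counts at DMSO vehicle, 5 and 500 μg/L, and the interval of its ratio at 500 μg/L was 0.852 to 1.17. trim3a and trim3b match TRIM3, a brain-enriched ligase of the synapse in rodents. Their ratios at 500 μg/L were 0.702 (0.595 to 0.825) for trim3a and 0.867 (0.822 to 0.914) for trim3b. trim9, whose mouse counterpart acts in axon guidance and branching, had a ratio of 0.797 (0.712 to 0.891), and trim46, known from the axon initial segment of mouse neurons, had 0.805 (0.680 to 0.951). LOC100332164, now trim67 in RefSeq and a relative of trim9, had 120, 76 and 54 reads at DMSO vehicle, 5 and 500 μg/L and a ratio of 0.711 (0.506 to 0.988) at 500 μg/L. trim71, the counterpart of worm lin-41 that controls developmental timing, was not lower, with a ratio of 1.14 (1.03 to 1.26) at 500 μg/L. At 5 μg/L the same genes lay between 0.851 for trim46 and 1.08 for trim2a. None of the 4 neuron markers in the table was called at 500 μg/L, with a median log2 ratio of -0.32 and a summed level of 25574 normalized counts, against 27918 in DMSO vehicle. Of 4 photoreceptor markers 1 was called lower at 500 μg/L (opn1sw1 at 0.198), with a median log2 ratio of -0.73 and a sum of 82309 normalized counts, against 164457 in DMSO vehicle. These markers did not move together. gnat2 and rho were at 0.536 and 0.683, while gnat1 was above the vehicle level at 1.71 (1.67 to 1.76). Most of the fall in the sum came from opn1sw1, with 72288 normalized counts in DMSO vehicle and 14324 at 500 μg/L. Of 4 epidermis markers 2 were called lower (krt4 at 0.445 and krt5 at 0.478), with a median of -1.01 and a sum of 276960 normalized counts, against 535307 in DMSO vehicle. The part of neuronal, photoreceptor or epidermal content in the lower ratios here and below was not tested.

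The nuclear corepressors trim24 and trim33 differed from the vehicle by at most 1.17-fold. trim24 (TIF1-alpha, a coregulator of nuclear receptors) had 671, 573 and 727 normalized counts at DMSO vehicle, 5 and 500 μg/L. trim33 (TIF1-gamma), which is needed for blood formation in zebrafish, had 947, 948 and 927 normalized counts at DMSO vehicle, 5 and 500 μg/L. Their ratios at 500 μg/L were 1.08 for trim24 and 0.979 for trim33, and the intervals, 0.973 to 1.21 and 0.892 to 1.07, both contain 1. At 5 μg/L the ratio of trim24 was 0.854 (0.764 to 0.953) and that of trim33 was 1.00 (0.916 to 1.09). LOC556127, described as TRIM33-like, rested on 36, 37 and 26 reads at DMSO vehicle, 5 and 500 μg/L, and its ratios of 1.42 (0.874 to 2.31) at 5 μg/L and 1.14 (0.662 to 1.94) at 500 μg/L had intervals that contain 1.

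The named genes trim25, trim25l, trim8, trim13, trim16, trim35 and trim44 stayed within 2-fold. trim25, whose human counterpart ubiquitinates the RNA sensor RIG-I, had 718, 747 and 1041 normalized counts at DMSO vehicle, 5 and 500 μg/L. It was 1.45 times the vehicle level at 500 μg/L (1.32 to 1.59) and 1.04 times at 5 μg/L. trim25l rested on 46, 22 and 25 reads at DMSO vehicle, 5 and 500 μg/L, and its interval at 500 μg/L, 0.506 to 1.43, contains 1. trim8, a regulator of cytokine and NF-kB signalling in human cells, had a ratio of 0.835 (0.776 to 0.897) at 500 μg/L, while LOC100002548, a second close match of TRIM8, had 1.44 (1.26 to 1.65). trim13, an endoplasmic reticulum ligase in human cells, had 0.880 (0.795 to 0.973). trim44, which has a B-box but no RING finger, had 0.802 (0.723 to 0.888). trim16, whose human counterpart acts as a ligase without a RING finger, showed its larger difference at the lower dose, where 282 reads against 611 in DMSO vehicle gave a ratio of 0.638, and its ratio was 1.08 at 500 μg/L. trim35 had a ratio of 1.1 at 500 μg/L with an interval of 0.779 to 1.55.

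**Figure D2:**
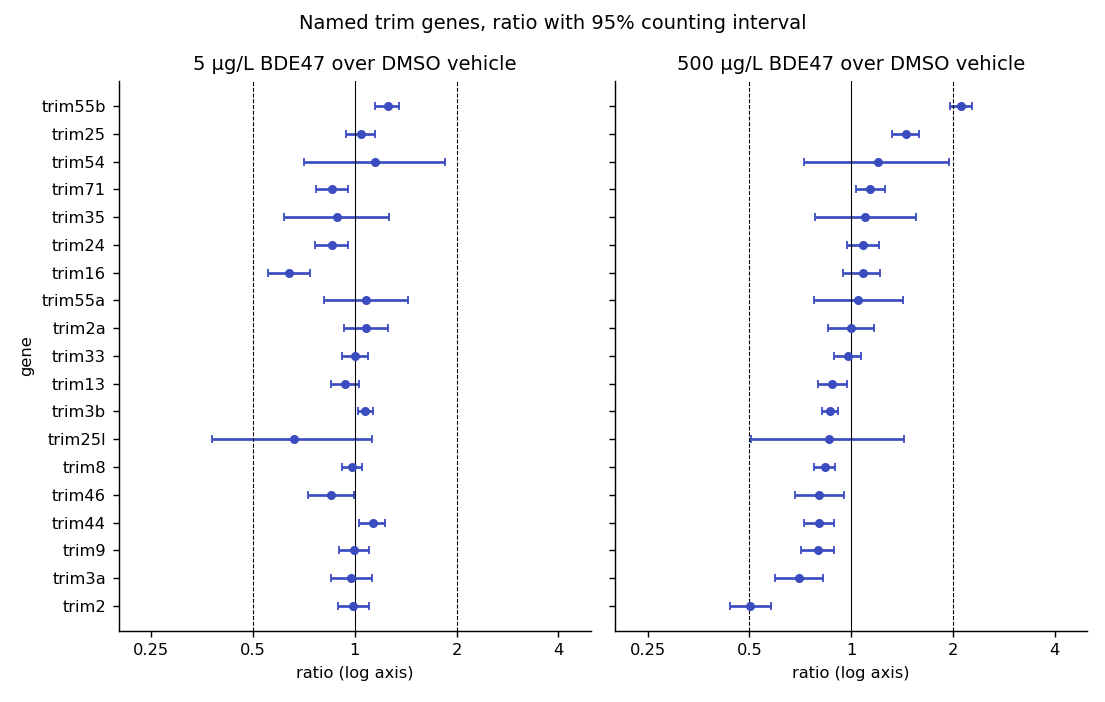
Ratio to DMSO vehicle (log axis) at 5 μg/L (left) and 500 μg/L BDE47 (right) for the 19 named trim genes, as points with 95% counting intervals, in the order of the ratio at 500 μg/L. Dashed lines mark ratios of 0.5 and 2, and only trim55b lies beyond them, with trim2 just inside at 0.503.

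TRIM39 matches, which include most bloodthirsty-related genes, made up 5 of the 7 called members that were well counted. Of these, btr04 alone had a btr symbol, and the others were LOC copies. Among 9 well-counted btr genes 1 was called (11.1%), near the 9.91% of all well-counted genes. Bloodthirsty was named for its requirement in zebrafish erythrocyte formation, and human TRIM39 stabilises proteins of the cell cycle and of apoptosis. Of 26 TRIM39 matches that met the minimum, 2 were higher and 6 were lower at 500 μg/L, that is 30.8%, beside 12.1% of all genes. Among the 11 well-counted ones 2 were higher and 3 were lower, beside 9.91% called of all well-counted genes. The spread of the log2 ratios of those 11 was 1.27 (SD from the median absolute deviation). Of 41 TRIM16 matches, by comparison, 2 were higher and none was lower (4.88%), and the spread over the 17 well-counted ones was 0.22. The share called over all members was not high in TRIM39 matches alone. It was 20% of 25 TRIM25 matches, 33.3% of 6 TRIM27 matches, 25% of 8 TRIM35 matches and 25% of 4 TRIM47 matches. No well-counted member of those groups was called at 500 μg/L. The contrast between matches was seen in these libraries and was not tested.

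LOC100000832, described as zinc-binding protein A33-like, was the TRIM39 match with the highest ratio. It had 65.6, 84.2 and 340 normalized counts at DMSO vehicle, 5 and 500 μg/L, from 83, 77 and 272 reads. The ratio was 5.18 (4.04 to 6.71) at 500 μg/L and 1.28 (0.929 to 1.77) at 5 μg/L. btr04 had 301, 326 and 702 normalized counts at DMSO vehicle, 5 and 500 μg/L, that is, 2.33 times the vehicle level at 500 μg/L (2.04 to 2.66). btr02 was next at 1.64 (1.42 to 1.88), within the threshold, and its ratio at 5 μg/L was 1.01. In all 3 genes the 500 μg/L library stood above the other two, and the 5 μg/L level was at most 1.28 times that in DMSO vehicle.

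Among the lower TRIM39 matches, too, the 500 μg/L library stood apart from the others. LOC566281, now trim35-13 in RefSeq, had 61, 47 and 5 reads at DMSO vehicle, 5 and 500 μg/L. This was a ratio of 0.130 (0.0406 to 0.319) at 500 μg/L, the lowest of any called member, and 1.07 at 5 μg/L. LOC797371 had 963, 853 and 356 normalized counts at DMSO vehicle, 5 and 500 μg/L, a ratio of 0.370 (0.324 to 0.421) at 500 μg/L. LOC100537438 had 687, 544 and 314 normalized counts at DMSO vehicle, 5 and 500 μg/L, a ratio of 0.457 (0.395 to 0.526) at 500 μg/L. Both were also somewhat below the vehicle at 5 μg/L, with ratios of 0.886 and 0.793. Neither carries a trim, ftr or btr symbol in RefSeq. LOC571944 is described as TRIM58-like and is now si:dkey-46i9.6 in RefSeq. It had 135, 120 and 46.2 normalized counts at DMSO vehicle, 5 and 500 μg/L, a ratio of 0.342 (0.233 to 0.490) at 500 μg/L. btr32 was in the same range, with 65, 39 and 12 reads at DMSO vehicle, 5 and 500 μg/L and a ratio of 0.292 (0.143 to 0.545). btr29 had 37, 31 and 11 reads at DMSO vehicle, 5 and 500 μg/L and a ratio of 0.470 (0.216 to 0.941), which was 0.547 after adding 5 to both values. LOC556805 had a ratio of 0.575 (0.505 to 0.654) at 500 μg/L and was not called. The founding gene bty had 86.9, 59.0 and 75.0 normalized counts at DMSO vehicle, 5 and 500 μg/L, and its interval at 500 μg/L, 0.619 to 1.19, contains 1. btr05, a TRIM27 match beside btr04, had 1.14 (0.950 to 1.37).

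**Figure D3:**
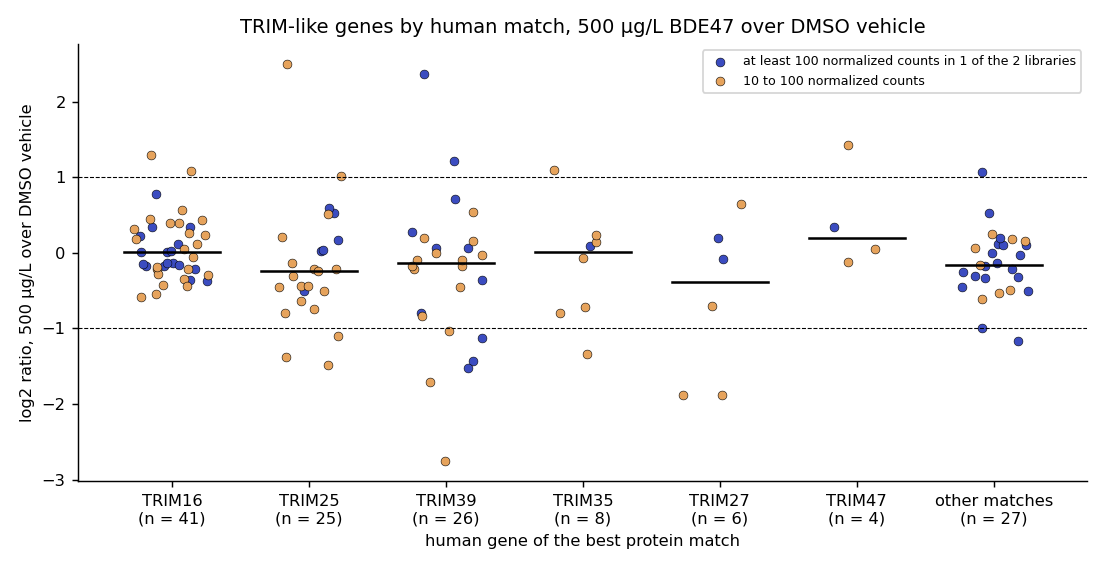
Log2 ratio of 500 μg/L BDE47 over DMSO vehicle (pseudocount 1) for the 137 TRIM-like genes that met the minimum, grouped by human match. Blue points are well-counted genes (100 normalized counts or more in either library) and orange points have fewer, bars are group medians, and dashed lines mark -1 and 1. The blue TRIM39 points spread from below -1 to above 2, while the blue TRIM16 points stay between the dashed lines.

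Of the 26 genes with an ftr symbol that met the minimum, 1 was called at 500 μg/L (3.85%). Of 18 LOC copies that RefSeq now lists as ftr genes 4 were (22.2%), 2 higher and 2 lower, beside 12.1% of all genes. The sets differed in depth: 10 of the 26 and 2 of the 18 were well counted, and none of those was called. The contrast between the sets was not tested. ftr82, with 1829, 1898 and 2124 normalized counts at DMSO vehicle, 5 and 500 μg/L, had a ratio of 1.16 (1.09 to 1.24) at 500 μg/L. ftr67 had 1571, 1776 and 1611 normalized counts at DMSO vehicle, 5 and 500 μg/L, and ftr83 had 590, 490 and 505. The ratios at 500 μg/L were 1.03 (0.955 to 1.1) for ftr67 and 0.856 (0.756 to 0.967) for ftr83. ftr65 had a ratio of 1.01 (0.867 to 1.16), and ftr15 had the lowest among those with over 400 reads in DMSO vehicle, at 0.703 (0.588 to 0.838). The called gene with an ftr symbol was ftr73, with 20, 11 and 4 reads at DMSO vehicle, 5 and 500 μg/L and a ratio of 0.316 (0.0786 to 0.944). Among 10 well-counted ftr genes, none was called and the median log2 ratio was 0.01. At lower counts ftr02, ftr23 and ftr37 (now ftr38 in RefSeq) had ratios of 0.702, 0.732 and 0.735 at 500 μg/L, with intervals that contain 1. The ratios of ftr52, ftr54 and ftr72 were 1.12, 0.903 and 1.44, likewise with 1 inside the interval. ftr52 is annotated as a pseudogene, as is ftr39, another of the ftr genes. ftr03, ftr07 and ftr76 had at most 5 reads in any library and give no usable ratio. The uncharacterized LOC798456 and LOC557183, also well counted, had ratios of 1.02 (0.962 to 1.08) and 1.26 (1.17 to 1.37). Neither carries an ftr symbol, and their matches were weak. The E-value was 2e-13 to TRIM25 for LOC798456 and 4e-25 to TRIM16 for LOC557183.

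The 4 called LOC copies now listed as ftr genes rested on at most 56 reads in any library. LOC561829 (now ftr66) had 4, 8 and 18 reads at DMSO vehicle, 5 and 500 μg/L, the largest ratio of any called member at 7.11, but with an interval of 2.34 to 28.9, and it was 3.37 after adding 5 to both values. LOC568694 (now ftr93) had 14, 14 and 23 reads at DMSO vehicle, 5 and 500 μg/L and a ratio of 2.60 (1.28 to 5.46). LOC565414 (now ftr63) was lower, with 49, 56 and 14 reads at DMSO vehicle, 5 and 500 μg/L and a ratio of 0.452 (0.230 to 0.831), which was 0.514 after adding 5 to both values. LOC569296 (now ftr55) was lower too, with 35, 22 and 8 reads at DMSO vehicle, 5 and 500 μg/L and a ratio of 0.361 (0.145 to 0.793). LOC558117 is trim45 in RefSeq, and human TRIM45 dampens MAP kinase-driven transcription. It had 116, 94.0 and 51.2 normalized counts at DMSO vehicle, 5 and 500 μg/L, a ratio of 0.441 (0.304 to 0.627) at 500 μg/L. LOC100534748, a TRIM35 match, had 46, 23 and 11 reads at DMSO vehicle, 5 and 500 μg/L and a ratio of 0.378 (0.177 to 0.741). LOC796700, a neoverrucotoxin subunit alpha-like gene, had 18, 8 and 25 reads at DMSO vehicle, 5 and 500 μg/L and a ratio of 2.20 (1.15 to 4.27), which was 1.88 after adding 5 to both values.

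The other called members had fewer than 20 normalized counts in both libraries of the comparison and were named after their values were seen. LOC100330813 had a ratio of 2.96 (1.18 to 8.07) on 15 reads at 500 μg/L, against 8 in DMSO vehicle. The ratios of LOC799678 and LOC100334769, 2.37 and 2.17, had intervals of 0.754 to 8.09 and 0.796 to 6.22, and both contain 1. LOC100536643 and LOC565470, both TRIM27 matches, carried the same reads in each library (15, 3 and 2 at DMSO vehicle, 5 and 500 μg/L). They cannot be told apart, and their ratio of 0.211 at 500 μg/L had an interval of 0.0234 to 0.906. Below the minimum, LOC570079 had 12, 1 and 0 reads at DMSO vehicle, 5 and 500 μg/L, and the upper limit of its ratio at 500 μg/L was 0.569. LOC100005871 had 10 reads in DMSO vehicle and none in the exposed libraries, with an upper limit of 0.705 at 500 μg/L. In the opposite direction LOC570979 had 0, 6 and 7 reads at DMSO vehicle, 5 and 500 μg/L and a lower limit of 2.28 for its ratio at 500 μg/L. Near-identical copies are common in these sets and the counting of reads shared between copies is not given in the sources used here, so values of single LOC, ftr and btr copies are uncertain to that extent.

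**Figure D4:**
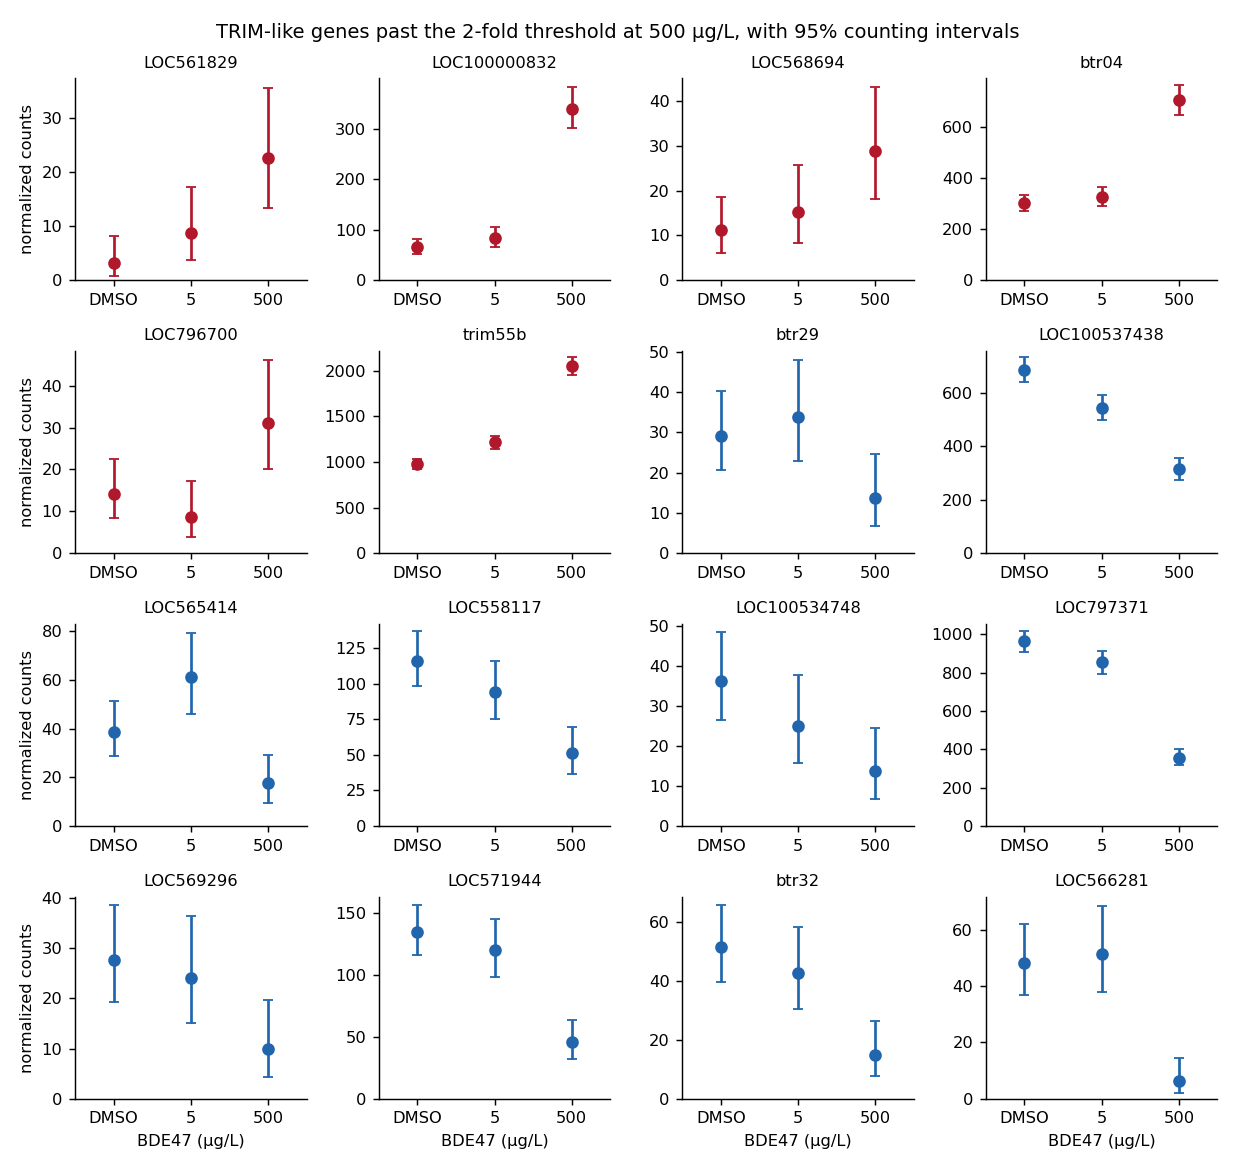
Normalized counts in DMSO vehicle, 5 and 500 μg/L BDE47 for the 16 TRIM-like genes called at 500 μg/L that reached 20 normalized counts, with 95% Poisson counting intervals. Red genes were higher and blue genes lower at 500 μg/L, each panel has its own axis from 0, and in most panels the 5 μg/L point lies nearer to DMSO vehicle than to 500 μg/L.

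At 5 μg/L against DMSO vehicle few TRIM-like genes were called, as was true of all genes. Of 136 members that met the minimum, 2 were higher and 5 were lower. Over all 17670 genes, 0.951% were higher and 1.97% were lower, so 5.15% of the members and 2.92% of all genes were called. The median log2 ratio was -0.05 for the members and 0.01 for all genes, and none of the 57 well-counted members was called, where 0.542% of all well-counted genes were. The called members were shallow, with a median of 15 reads in the deeper library. btr20 had 47, 15 and 18 reads at DMSO vehicle, 5 and 500 μg/L, and its ratio at 5 μg/L was 0.441 (0.229 to 0.803), or 0.508 after adding 5 to both values. ftr26 had 45, 15 and 24 reads at DMSO vehicle, 5 and 500 μg/L and a ratio of 0.461 (0.239 to 0.843) at 5 μg/L, or 0.527 after adding 5 to both values. LOC100001589, a TRIM47 match, had 29, 6 and 19 reads at DMSO vehicle, 5 and 500 μg/L and a ratio of 0.286 (0.0971 to 0.701) at 5 μg/L. In these 3 genes the 5 μg/L library was the lowest, and at 500 μg/L their ratios to DMSO vehicle were 0.605, 0.843 and 1.04. The higher members, LOC100537128 with 11 reads at 5 μg/L against 7 in DMSO vehicle and LOC558675 with 10 against 6, had intervals that contain 1. The other 2 lower members were LOC100536643 and LOC565470, the pair with identical reads, and these were also the only 2 members called at both doses. Both comparisons use the same DMSO vehicle library.

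The direct ratio of 500 to 5 μg/L does not use the vehicle library, but it shares the 500 μg/L library with the comparison above. Of 138 members that met the minimum, 10 were higher and 13 were lower at 500 μg/L, beside 7.39% higher and 4.10% lower of 17707 genes. LOC100000832 had a ratio of 4.04 (3.12 to 5.27) and LOC566281 of 0.122 (0.0377 to 0.304). btr30, a TRIM47 match, was called here but in neither comparison with DMSO vehicle. It had 372, 221 and 471 normalized counts at DMSO vehicle, 5 and 500 μg/L, so that the 500 μg/L level was 2.13 times that at 5 μg/L (1.79 to 2.54), while the ratios to DMSO vehicle were 0.593 at 5 μg/L and 1.27 at 500 μg/L. trim55b, at 1.69, was within the threshold.

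Other call rules were applied to the same genes. With a ratio of at least 1.5 or its inverse, 14 members were higher and 24 lower at 500 μg/L (17.0% and 14.9% of all genes), 8 higher and 13 lower at 5 μg/L (3.53% and 5.80% of all genes), and 19 higher and 21 lower for 500 against 5 μg/L (16.8% and 12.9% of all genes). Fisher's exact test on the recovered reads compares the libraries, not the conditions. With a 2-fold ratio and a Benjamini-Hochberg adjusted p of at most 0.05 from it, 20 members remained at 500 μg/L (11.2% of all genes), 3 at 5 μg/L (1.84%) and 14 for 500 against 5 μg/L (10%). The exact test of edgeR, run with a biological coefficient of variation set to 0.2, adjusted by Benjamini-Hochberg, kept 5 members at 500 μg/L (4.16% of all genes), 0 at 5 μg/L (0.0283%) and 2 for 500 against 5 μg/L (3.49%). The 5 at 500 μg/L were LOC100000832 and LOC561829, which were higher, and LOC566281, LOC571944 and LOC797371, which were lower. At 5 μg/L 1 called member had an unadjusted p under 0.05 in that test.

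Position was compared through the RefSeq gene table, in which 128 of the 169 members could be placed. They lay on 22 chromosomes, and the chromosome with the most held 35 of them. Members with no other protein-coding gene between them formed 18 runs with 54 members in all, and 41 of these met the minimum at 500 μg/L, of which 1 was higher and 3 were lower, beside 12.1% of all genes. The longest run held 7 genes (ftr02, ftr03, ftr06, ftr07 and 3 LOC copies). Only ftr02 and ftr06 met the minimum at 500 μg/L, so the others could not be called, and neither of the pair was called. In the run of btr04, btr05 and btr06 the ratios at 500 μg/L were 2.33, 1.14 and 1.05. btr12 had 0.776 (0.625 to 0.959) beside LOC571944 at 0.342, and btr29 had 0.470 beside LOC100149991 at 0.998, while ftr82 and ftr83 had 1.16 and 0.856.

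**Figure D5:**
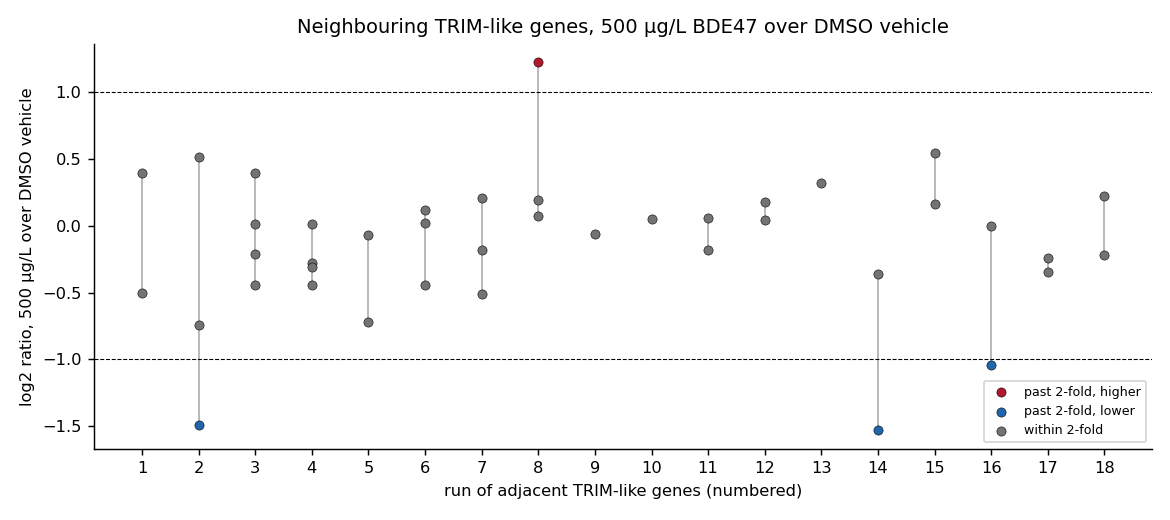
Log2 ratio of 500 μg/L BDE47 over DMSO vehicle (pseudocount 1) for TRIM-like genes in the 18 runs of neighbours, 1 column for each run, for the 41 members that met the minimum. Red and blue points are called higher and lower, grey lines join the lowest and highest member of a run, and every called gene shares its run with at least 1 neighbour within the dashed lines at -1 and 1.

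Partners of the TRIM ligases were read from lists of antiviral signalling genes and of ubiquitin enzymes. Of 28 listed signalling genes 20 were in the table and 18 met the minimum at 500 μg/L, of which 5 were higher and 1 was lower, beside 7.40% and 4.74% of all genes. The ubiquitin-like modifier gene isg15 had 91.7, 166 and 843 normalized counts at DMSO vehicle, 5 and 500 μg/L, a ratio of 9.20 (7.54 to 11.3) at 500 μg/L. irf7, the transcription factor of interferon induction, was 5.01 times the vehicle level (4.42 to 5.70), and stat1b, of interferon signalling, was 5.05 times (3.21 to 8.17). The interferon gene ifnphi1 was also called higher, at 11.9 (2.76 to 107), but on 15 reads at 500 μg/L, against 2 in DMSO vehicle. The antiviral GTPase gene mxc was lower at 0.395 (0.281 to 0.546). Of the RIG-I pathway genes, irf3 was higher at 2.92 (2.18 to 3.94), ikbke was at 1.22 (1.05 to 1.42), and mavs, tbk1 and traf3 were between 0.938 and 0.993 of the vehicle level. At 5 μg/L 3 of 17 were higher, namely rsad2 at 4.19, ifit2 at 2.96 and stat1b at 2.61, and none was lower. At 500 μg/L rsad2 was at 0.867 (0.45 to 1.62), ifit2 at 0.651 (0.372 to 1.1) and mxa at 0.790 (0.360 to 1.64), and the list's median log2 ratio was 0.16. Of 20 listed E1 and E2 genes 9 were in the table. Of these, 1 was called at 500 μg/L and none at 5 μg/L, beside 12.1% and 2.92% of all genes. The called gene ube2d2, an E2 enzyme used by many RING ligases, had 854, 984 and 3339 normalized counts at DMSO vehicle, 5 and 500 μg/L, a ratio of 3.91 (3.64 to 4.2) at 500 μg/L. The other 8 lay between 0.695 and 1.46 at 500 μg/L.

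Markers of blood cells were read beside the counts above. Of 4 macrophage markers none was called at 500 μg/L and 2 were lower at 5 μg/L (mfap4 at 0.320 and lygl1 at 0.486), and their sum was 3600, 2174 and 4124 normalized counts at DMSO vehicle, 5 and 500 μg/L. Of 5 genes in the neutrophil list 1 was higher at 500 μg/L, the matrix metalloproteinase mmp13a at 26.6. Their sum was 83899, 91065 and 56033 normalized counts at DMSO vehicle, 5 and 500 μg/L, most of it from cpa5, at 46459 normalized counts at 500 μg/L, against 79264 in DMSO vehicle. The human match of cpa5 is CPA1, a carboxypeptidase gene, so this sum cannot stand for neutrophil content. All other genes of the list had ratios of at least 1.04 at 500 μg/L. The list's median log2 ratio at 500 μg/L was 0.76, with nccrp1 at 1.71 and lyz at 1.04. The peroxidase gene mpx had 753, 421 and 1275 normalized counts at DMSO vehicle, 5 and 500 μg/L. Of 4 erythrocyte markers 1 was higher at 500 μg/L, and their sum was 25760 normalized counts at 500 μg/L, against 14471 in DMSO vehicle. The part of these cells in the TRIM-like values was not tested.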

How the data were processed

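The authors sequenced poly(A) RNA from pooled larvae, mapped reads to zebrafish (Zv9, with human hg19 for annotation, per the labels) and deposited 1 table of TMM-normalized signal per gene and library, with a human protein match and its E-value. The aligner version, the handling of reads shared by copies and strand are not given in the sources used here. Each deposited value was a whole multiple of 1 read (100% within 0.01 read), so reads were recovered. Of 21098 rows, 19824 were mRNA, and 10 of these were left out because their name was only a clone prefix. The 15 TRIM-matched rows of other types were not members. Ratios used normalized counts, log2 ratios a pseudocount of 1, and intervals the 95% Clopper-Pearson limits of the share of reads. Named were the 4 members with most counts per symbol class, called members with at least 20 normalized counts, trim genes of known role, and listed partners. Genes named outside this rule (trim16, trim35, trim44, LOC100332164, LOC100002548, LOC556127, the shallowest copies and neighbours in runs) were chosen after their values were seen. Members and lists were chosen with earlier results of these data known. With 1 library per condition no test across replicates was possible. Alternatives were the filter, scaling, fold, pseudocount, read-based tests and membership. Protein and promoter sequences were not used here. Tools were Python 3.11.15, pandas 2.3.3, scipy 1.17.1, R 4.3.3 and edgeR 4.0.16, and scripts were tested on simulated data.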

Additional observations from a re-analysis of the deposited data

How the results depend on the processing

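No paired analysis was possible because each condition had 1 library, and for the same reason no library could be left out. Called members numbered 22 at 500 μg/L, 7 at 5 μg/L and 23 for 500 against 5 μg/L. Without a filter on low values they were 40, 22 and 37, and with a minimum of 50 normalized counts 8, 0 and 8. With a 1.5-fold threshold they were 38, 21 and 40. Adding Fisher's exact test moved the counts to 3 at 5 μg/L and 14 for 500 against 5 μg/L, and kept 20 at 500 μg/L. Adding the edgeR exact test with an assumed coefficient of variation of 0.2 left 5, 0 and 2. Membership by trim, ftr or btr symbol alone, whatever the human match, gave 5, 2 and 5. That set drops the LOC copies and bty, and it adds trim36, trim66 and ftr79. Scaling to total reads, centring on the median and counting identical rows once gave 21 to 23 at 500 μg/L, 6 or 7 at 5 μg/L and 23 for 500 against 5 μg/L. The median log2 ratio of members ran between -0.18 and -0.09 at 500 μg/L and between -0.08 and -0.03 at 5 μg/L. All 336 alternative ratios of the 56 named members lay inside their counting intervals. This could hardly have failed, since the largest log2 shift from scaling was -0.038. Adding 5 moved mainly shallow genes, whose intervals are wide. Some ratios crossed the 2-fold threshold: adding 5 to both values lost 3 calls at 500 μg/L (btr29, LOC565414 and LOC796700) and 2 at 5 μg/L (btr20 and ftr26), and scaling to total reads added trim2 at 500 μg/L (0.490). Depth limits the shallow copies: 29 members stayed below 10 normalized counts in every library.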

Other observations

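Genes of the wider TRIM family that the selection did not take, because their human match was not a numbered TRIM gene, were read in the same way. Of 7 such genes, all of which met the minimum, 1 was called at 500 μg/L and none at 5 μg/L, beside 12.1% and 2.92% of all genes. mid1, a microtubule-binding ligase whose human counterpart is mutated in Opitz syndrome, had 213, 219 and 98.7 normalized counts at DMSO vehicle, 5 and 500 μg/L, a ratio of 0.462 (95% counting interval 0.355 to 0.596) at 500 μg/L. Its relative mid2 had a ratio of 0.853 (0.698 to 1.04). trim36, a relative of both, had 0.645 (0.530 to 0.783) at 500 μg/L and 0.697 (0.581 to 0.835) at 5 μg/L. trim66 and ftr79 had ratios of 1.12 and 0.838 at 500 μg/L, with intervals that contain 1.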
